A study of Mus musculus with 25 samples.

Results

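Atria of female mice that lack Pam were compared with atria of wild-type females in the 6 libraries whose names in the labels begin with CGI, out of 25 RNA sequencing libraries in all. Pam encodes peptidylglycine alpha-amidating monooxygenase (PAM), an enzyme that needs copper, turns the C-terminal glycine of many secreted peptides into an amide, and is abundant in the membranes of the granules in which atrial myocytes store their hormones. The knockout group held libraries KF19, KF20 and KF21, the wild-type group WF10, WF11 and WF12, where the codes are those of the labels. All were labelled as atrium of mice aged 60 to 90 days, and no treatment is named. The labels give a genotype of PAM knockout or wildtype and no more: which part of the gene was deleted, in which cells, in which strain, on which side of the heart and at which hour the tissue was taken are not given in the sources used here. Nothing says whether each library is a separate mouse, so p-values measure the spread between these libraries, which may be technical. The other libraries used, for comparison, were 3 of wild-type males with CGI names (WM5, WM6, WM7), and, with names that begin with LA or RA, 2 of wild-type females (WF8, WF9) and 5 of knockout females (KF14 to KF18).

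Most of the genes that passed the test below belong to the circadian clock or to the response to glucocorticoids. In the clock of most tissues, the activators ARNTL (also called BMAL1) and CLOCK or NPAS2 switch on the genes of their own repressors, the PER and CRY proteins, and of NR1D1 and NR1D2, which in turn repress Arntl, so that these groups of genes peak at opposite times of day. The heart has such a clock, and the transcription factors DBP, TEF and HLF carry its rhythm to other genes. Glucocorticoids, adrenal steroids that are also secreted with a daily rhythm, act through a receptor that directly induces genes such as Fkbp5, Tsc22d3 and Per1.

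The libraries differed in depth and make-up before genotype was considered. Depth was 2246887 reads in WF10, 7363936 in WF11, 6772947 in WF12, 4597974 in KF19, 6792216 in KF20 and 7376149 in KF21. WF10, the least deep, also stood apart in content: mitochondrial genes gave 30.4% of its reads, against 7.84% to 13% in the other 5. Levels are given as CPM, the reads of a gene scaled to the total of its library. Rn7sk, a small nuclear RNA, was at 1116 CPM in WF10, against 4.35 to 60.2 CPM in the other 5. Bmp10, whose BMP-family growth factor marks the right side of the atria, varied within both groups, at 15.6 CPM in WF10, 5047 in WF11, 669 in WF12, 58.3 in KF19, 5091 in KF20 and 6074 in KF21. Myl2, the ventricular regulatory light chain, was at 4724 CPM in WF10, 401 in WF11, 47.4 in WF12, 10.9 in KF19, 346 in KF20 and 533 in KF21. Myl7, the atrial light chain, was high in every library, at 1127 CPM in WF10 and at 3064 to 5631 CPM in the other 5, and Xist was high in all 6. The genes of this paragraph were chosen after their values were seen, and their part in the differences below was not tested. Every pair of libraries within a group differed by more than the sampling of reads alone would give, so none was counted as a repeated reading of 1 library. KF20 and KF21 were the closest pair, with a chi-square per degree of freedom of 3.01. The other pairs within a group had 31.5 to 124. This check cannot tell 2 preparations of 1 mouse from 2 mice.

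Pam itself was lower in the 3 knockout libraries. It was at 1409 CPM in WF10, 6011 in WF11 and 5661 in WF12, and at 295 CPM in KF19, 416 in KF20 and 463 in KF21. The groups did not overlap, and the lowest wild-type value was that of WF10. Mean levels were 4360 ± 2562 CPM in wild type and 391 ± 86.8 CPM in knockouts (SD, n = 3 each), a ratio of 11.1. The log2 difference in CPM plus a pseudocount of 1, knockout minus wild type, was -3.24 with a standard error (SE) of 0.49 and an adjusted p of 0.0101 (limma, Benjamini-Hochberg over all genes tested, as for each adjusted p from limma below). An exact two-sided permutation test gave p = 0.1, the smallest that 3 against 3 libraries allow. Without WF10 the difference was -3.92 (adjusted p = 0.00172, limma), and without KF19 it was -3.05 and did not pass (adjusted p = 0.568). Pam lies at chr1:97795114-98095646 on the minus strand (GENCODE M21, GRCm38), and whether the reads that remain lie in a deleted part cannot be read from values per gene.

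In all, 21 of 14229 genes tested were called at an adjusted p under 0.05 (0.148% of genes), 15 higher (0.105%) and 6 lower (0.0422%) in knockouts, with 544 genes at an unadjusted p under 0.05. Without WF10, 12 genes were called (0.0843%), all 12 among the 21, of which 11 were higher and Pam was lower. The count rested on single libraries in other ways too: it was 112 without WF11 and 0 without KF19, where 628 genes had an unadjusted p under 0.05 by limma. Of the 21, 19 were called without WF12, 16 without KF20 and 16 without KF21. Whole reads could be recovered from the values, and on these edgeR called 12 genes and DESeq2 called 72, including 11 and 21 of the 21. The median log2 difference over all genes was 0.24, so that most genes read slightly higher in knockouts on the deposited scale. With median-ratio scaling of the 6 libraries that median was 0.02, and 11 genes were called higher and 2 lower. With TMM scaling the split was 12 and 2, and with quantile normalization 12 and 1. For a coarser description, the 3 knockout values lay above all 3 wild-type values in 1029 genes (7.23%) and below them in 229 (1.61%). After median-ratio scaling these counts were 924 and 953.

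**Figure D1:**
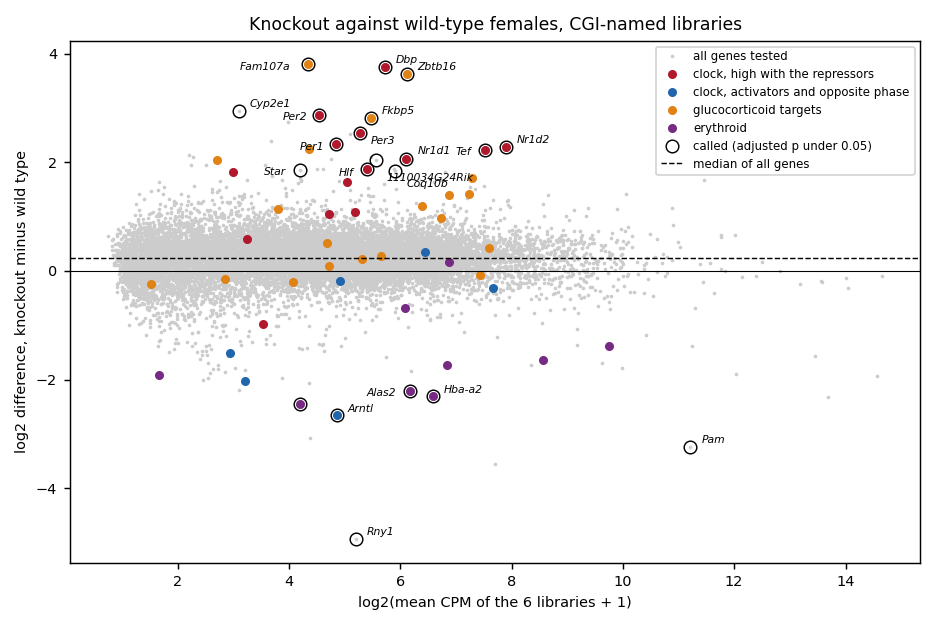
Log2 difference, knockout minus wild type, against the log2 of the mean CPM plus 1 of the 6 CGI female libraries, 1 point per gene. Colours mark members of 4 gene lists, rings mark the 21 called genes, all but 1 of them named, and the dashed line the median of all genes, 0.24. Most ringed genes at the top belong to the clock or glucocorticoid lists, and Pam is the ringed gene at the lower right.

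Of 14 measured genes that peak together with the clock's repressors, 8 were higher in knockouts past the test, and none was lower past it. Over all genes tested the shares were 0.105% and 0.0422%. The 3 knockout values lay above the 3 wild-type values in 13 of the 14, against 7.23% of all genes tested. After median-ratio scaling they did so in 11 of 14, against 924 of 14229 genes. The list's median log2 difference was 1.97, against 0.24 over all genes tested, and 1.88 without WF10. Without WF10, 6 of the 14 were called, against 12 of all 14229 genes, and without KF19, 0 of the 14 and 0 of all genes.

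Dbp, the rhythmic transcription factor gene whose daily amplitude is among the widest of clock outputs, was the called gene with the smallest p. Its level was 3.12 CPM in WF10, 6.38 in WF11 and 11.5 in WF12, and 101 in KF19, 94.1 in KF20 and 97.5 in KF21. The 3 knockout libraries lay close together and far above every wild-type library, at 97.4 ± 3.31 against 7.0 ± 4.23 CPM (SD, n = 3 each), a ratio of 13.9. The log2 difference was 3.76 (SE 0.40, adjusted p = 0.00104, limma). Dbp lies at chr7:45705088-45710203. Tef and Hlf, its relatives with the same kind of DNA-binding domain, followed. Tef was at 48.1, 77.7 and 66.9 CPM in WF10, WF11 and WF12 and at 263, 312 and 327 CPM in KF19, KF20 and KF21, with a log2 difference of 2.23 (adjusted p = 0.00648, limma). Hlf was at 13.8, 16.8 and 21.4 CPM in the wild types and at 60.2, 67.9 and 69.4 CPM in the knockouts, with a log2 difference of 1.88 (adjusted p = 0.0268, limma). In neither gene did the groups overlap.

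The period genes, which encode repressors of the clock's activators, rose as a family. Per2 was at 3.56 CPM in WF10, 7.06 in WF11 and 3.40 in WF12, and at 27.8 in KF19, 42.4 in KF20 and 49.6 in KF21, a log2 difference of 2.87 (SE 0.38, adjusted p = 0.00433, limma). Per3 was at 7.57, 10.3 and 13 CPM in the wild types and at 45.0, 71.0 and 80.5 CPM in the knockouts, a log2 difference of 2.55 (adjusted p = 0.00606, limma). Per1 was at 6.68, 8.01 and 9.89 CPM in the wild types and at 28.1, 62.6 and 51.2 CPM in the knockouts, a log2 difference of 2.33 (adjusted p = 0.0195, limma). KF19 was the lowest knockout for each of the 3 genes and still lay well above all wild types. Without WF10, Per2 and Per3 stayed past the test with an adjusted p of 0.0272 each (limma), and Per1 did not (0.0846).

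Nr1d1 and Nr1d2 encode the nuclear receptors REV-ERB alpha and beta, which repress Arntl. Nr1d2 was at 71.2 CPM in WF10, 67.2 in WF11 and 106 in WF12, and at 343 in KF19, 415 in KF20 and 425 in KF21, a log2 difference of 2.28 (SE 0.32, adjusted p = 0.00606, limma, and 0.0616 by edgeR). Nr1d1 was at 22.3, 19.4 and 36.6 CPM in the wild types and at 81.1, 125 and 124 CPM in the knockouts, a log2 difference of 2.06 (adjusted p = 0.0268, limma). Every knockout library thus lay above every wild type for both receptors. Nr1d1 had an adjusted p of 0.101 without WF10 and of 0.157 after median-ratio scaling (limma), and of 0.146 by edgeR.

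The other 6 members of the list did not pass the test. Ciart, a further repressor of the loop, ran from 1.92 to 3.26 CPM in wild types and from 7.61 to 14.2 in knockouts (log2 difference 1.82, adjusted p = 0.0980, limma). Bhlhe40, which encodes the repressor DEC1, ran from 10.7 to 18.7 CPM and from 40.5 to 57.1 CPM (1.64, adjusted p = 0.114). Cry2, Usp2 and Bhlhe41 had log2 differences of 1.05, 1.09 and 0.60 with groups that did not overlap. Cry1, a cryptochrome whose peak comes later in the cycle than that of the period genes, had the opposite sign, at 10.3 to 17.4 CPM in wild types and 4.78 to 9.63 CPM in knockouts (-0.98, adjusted p = 0.874, limma).

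The activator Arntl went the other way. It was at 30.7 CPM in WF10, 63.3 in WF11 and 53.3 in WF12, and at 3.04 in KF19, 9.13 in KF20 and 9.76 in KF21. Means were 49.1 ± 16.7 and 7.31 ± 3.71 CPM (SD, n = 3 each), a ratio of 6.72, and the log2 difference was -2.66 (SE 0.43, adjusted p = 0.0195, limma). Without WF10 the adjusted p was 0.0548 (limma). Arntl was the only called member among 6 genes of the activators and the opposite phase, whose median log2 difference was -0.92. Called lower were 0.0422% of all genes tested. Npas2, the alternative partner of ARNTL, was at 10.7, 9.78 and 10.5 CPM in the wild types and at 1.96, 3.83 and 3.39 CPM in the knockouts (-1.51, adjusted p = 0.277, limma). Nfil3, which encodes a repressor that competes with DBP for the same sites, ran from 6.79 to 20.0 CPM in wild types and from 1.96 to 3.12 in knockouts (-2.03, adjusted p = 0.0939, limma). The groups of both genes did not overlap. Clock ran from 172 to 276 CPM in wild types and from 144 to 208 CPM in knockouts, with overlap (-0.32, adjusted p = 0.874, limma).

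**Figure D2:**
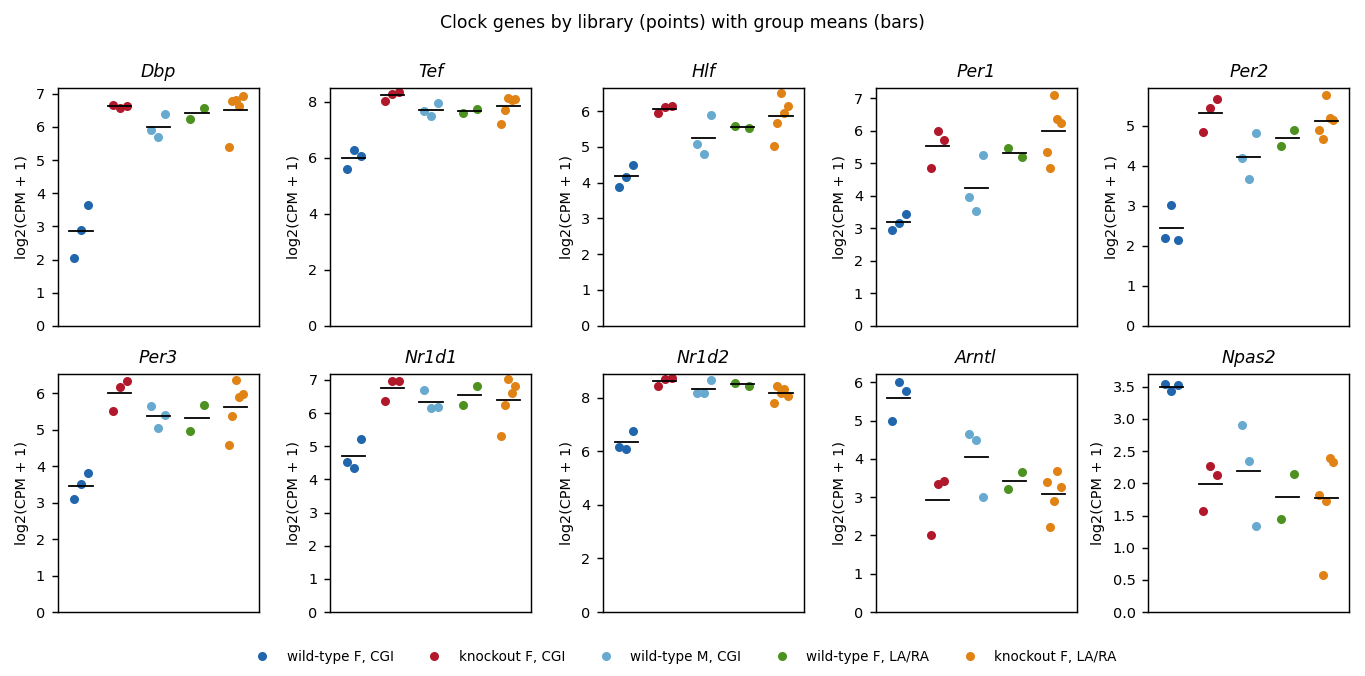
Levels of 10 clock genes as log2 of CPM plus 1 in each library (points), by genotype, sex and name set, with group means (bars). The 3 wild-type CGI females (dark blue) lie below the knockout CGI females (red) for the first 8 genes and above them for Arntl and Npas2, and the means of the other 3 groups lie above those of the wild-type CGI females for the first 8 genes and below them for the last 2.

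The promoters of 3 called genes are shown because they carry the letters that clock proteins are known to bind, the E-box CACGTG of the activators and the D-box TTATGTAA of DBP, TEF and HLF. Each window runs from 250 bases before to 50 after a start in RefSeq (GRCm38.p6), 5′ to 3′ on the gene's strand, with matches on either strand in capitals, so that the D-box of Coq10b reads as its reverse complement. They are chr11:69098699-69098998 on the plus strand for Per1, chr4:151044616-151044915 on the minus strand for Per3 and chr1:55052520-55052819 on the plus strand for Coq10b, a gene of coenzyme Q function that was also called higher.
Per1: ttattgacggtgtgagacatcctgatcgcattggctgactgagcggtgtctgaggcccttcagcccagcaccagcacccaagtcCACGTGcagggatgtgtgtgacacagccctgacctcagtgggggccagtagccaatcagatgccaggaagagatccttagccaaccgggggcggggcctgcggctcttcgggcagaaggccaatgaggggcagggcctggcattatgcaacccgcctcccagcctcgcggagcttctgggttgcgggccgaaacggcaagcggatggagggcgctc
Per3: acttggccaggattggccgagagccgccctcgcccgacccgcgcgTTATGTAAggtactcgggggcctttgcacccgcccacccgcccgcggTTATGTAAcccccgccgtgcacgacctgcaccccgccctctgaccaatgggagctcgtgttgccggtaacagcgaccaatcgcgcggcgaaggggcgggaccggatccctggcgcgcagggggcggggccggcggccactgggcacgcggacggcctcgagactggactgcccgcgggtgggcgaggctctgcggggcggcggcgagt
Coq10b: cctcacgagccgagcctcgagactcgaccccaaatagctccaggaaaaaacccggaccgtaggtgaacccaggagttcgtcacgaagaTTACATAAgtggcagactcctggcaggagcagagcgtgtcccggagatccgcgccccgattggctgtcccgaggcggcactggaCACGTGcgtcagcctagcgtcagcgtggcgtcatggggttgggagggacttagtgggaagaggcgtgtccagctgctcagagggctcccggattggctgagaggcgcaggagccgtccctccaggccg
The E-box stood in 7.15% and the D-box in 0.938% of 32851 such windows. Counted per gene, at any of its listed starts, the shares were 8.09% and 1.11% of 27025 genes. Of the 15 genes called higher, 11 had a window, of which 4 (Per1, Tef, Fkbp5 and Coq10b) held the E-box and 2 (Per3 and Coq10b) the D-box, counted in the same way. The 2 motifs share no letters in these windows. A match describes the letters and not a bound site.

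Targets of the glucocorticoid receptor made up the next group. Of 20 measured and tested genes of this list, 3 were higher in knockouts past the test and none was lower past it. Over all genes tested the shares were 0.105% and 0.0422%. The knockout values lay above the wild-type values in 10 of 20, against 7.23% of all genes tested. After median-ratio scaling they lay above in 9 of 20 and below in 2, against 924 and 953 of 14229 genes. The median log2 difference was 1.06, against 0.24 over all genes, and 0.66 without WF10. The same number, 3, was called without WF10, 6 without WF11 and 0 without KF19, against 12, 112 and 0 over all genes. From this list edgeR called 2 and DESeq2 8, against 12 and 72 over all genes.

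Fkbp5, the co-chaperone that dampens the glucocorticoid receptor and is itself induced by it, was at 10.2 CPM in WF10, 9.23 in WF11 and 9.89 in WF12, and at 54.2 in KF19, 92.3 in KF20 and 84.3 in KF21. The wild types lay close together, and the lowest knockout was several-fold above them. The log2 difference was 2.82 (SE 0.34, adjusted p = 0.0015, limma), and 2.85 without WF10 (adjusted p = 0.0100). Fkbp5 lies at chr17:28399094-28517527 on the minus strand. Zbtb16, a zinc-finger repressor gene that glucocorticoids induce strongly, was at 14.2, 4.07 and 10.9 CPM in the wild types and at 73.5, 140 and 167 CPM in the knockouts, a log2 difference of 3.63 (SE 0.44, adjusted p = 0.0015, limma). Zbtb16 had an adjusted p of 0.157 after median-ratio scaling and of 0.146 by edgeR. Fam107a, which encodes an actin-associated protein, was at 0.890, 2.04 and 1.62 CPM in the wild types and at 16.7, 40.8 and 54.2 CPM in the knockouts. Its ratio of means, 24.6, was the widest among the genes called higher, with a log2 difference of 3.80 (adjusted p = 0.0015, limma). KF19 was again the lowest knockout for all 3.

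Members of this list with large differences that did not pass were Tsc22d3, which encodes the anti-inflammatory protein GILZ, Map3k6 and Klf9. Tsc22d3 was at 45.0, 88.1 and 84.0 CPM in the wild types and at 152, 294 and 268 CPM in the knockouts (log2 difference 1.71, adjusted p = 0.137, limma). Map3k6 ran from 2.23 to 9.30 CPM in wild types and from 23.5 to 40.8 CPM in knockouts (2.25, adjusted p = 0.0804). Klf9, a Krüppel-like factor gene, ran from 40.9 to 76.7 CPM and from 120 to 210 CPM (1.40, adjusted p = 0.367). Tat, the liver enzyme tyrosine aminotransferase and a classical glucocorticoid target that was outside the list, ran from 0.445 to 5.57 CPM and from 13.7 to 32.4 CPM (2.74, adjusted p = 0.0661, limma).

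The remaining 4 genes called higher were in neither list. Star encodes the protein that carries cholesterol into mitochondria for steroid synthesis. It was at 5.79, 8.42 and 6.79 CPM in the wild types and at 25.7, 28.4 and 29.4 CPM in the knockouts (log2 difference 1.86, adjusted p = 0.0394, limma). Coq10b was at 18.7, 33.1 and 24.7 CPM in the wild types and at 112, 85.2 and 81.8 CPM in the knockouts (1.85, adjusted p = 0.0385), but did not pass without WF10 (adjusted p = 0.0600), after median-ratio scaling (0.127) or by edgeR (0.103). The predicted gene 1110034G24Rik was at 12.9, 20.6 and 18.8 CPM and at 90.7, 62.6 and 71.2 CPM (2.05, adjusted p = 0.0209, limma), with an adjusted p of 0.0649 after median-ratio scaling and of 0.0510 by edgeR. In these 3 genes the lowest knockout lay more than 2-fold above the highest wild type.

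Cyp2e1, a cytochrome P450 gene that fat and liver express, was at 0 CPM in WF10, 4.21 in WF11 and 0.295 in WF12, and at 15.2 in KF19, 15 in KF20 and 11 in KF21 (log2 difference 2.95, SE 0.51, adjusted p = 0.0268, limma). Cyp2e1 did not pass without WF10 (adjusted p = 0.350, limma), after median-ratio scaling (0.334, limma) or by edgeR (0.718). Adipocyte markers had the same sign beside it: 11 of 12 tested had a log2 difference above 0, against 10980 of 14229 genes. Their median was 1.06. In 4 of them the groups did not overlap (1 after median-ratio scaling), against 7.23% of all genes in that direction. Among the 12, 6 were at an unadjusted p under 0.05, against 544 of 14229 genes, and none was called (limma). Their mean log2 level ran from 3.14 to 4.43 in wild types and from 4.21 to 5.12 in knockouts, though their summed level overlapped, at 1680 to 3103 CPM and 1982 to 2351 CPM. Adipoq, which defines fat cells, was at 0 CPM in WF10, 12.1 in WF11, 1.18 in WF12, 38.9 in KF19, 11.9 in KF20 and 6.91 in KF21. In WF10, 3 of the 12 tested markers were at 0. The part of fat tissue in the Cyp2e1 difference was not tested.

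**Figure D3:**
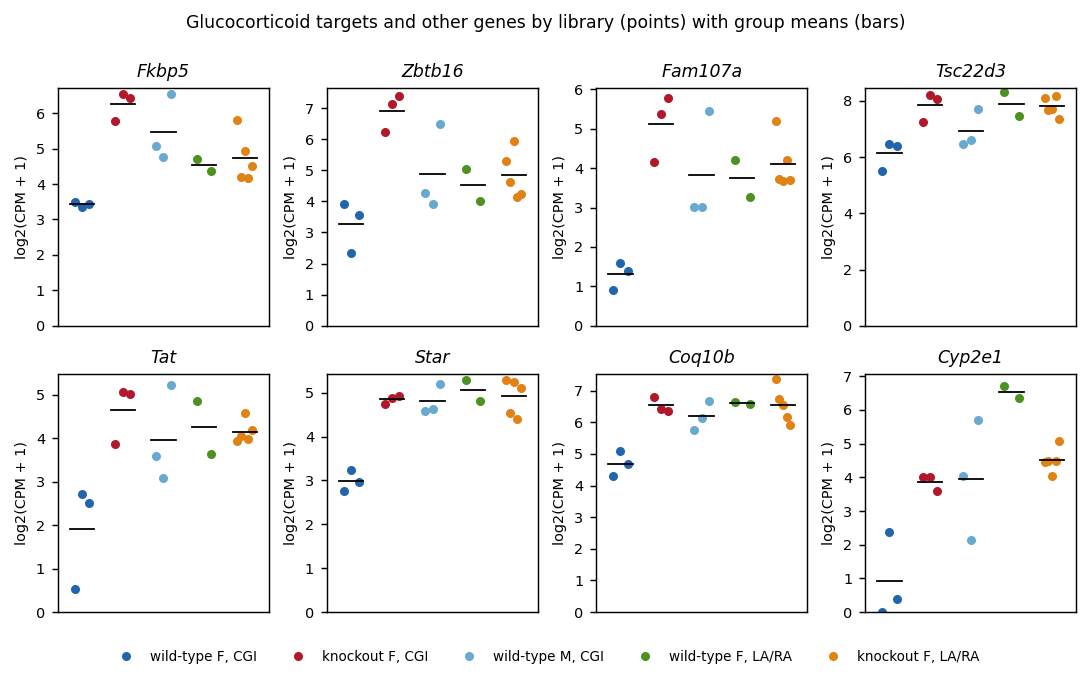
Levels of glucocorticoid targets and of other genes that were higher in the CGI knockout females, as log2 of CPM plus 1 in each library (points), with group means (bars). Wild-type CGI females (dark blue) lie below knockout CGI females (red) for each gene, and Cyp2e1 is highest in wild-type females with LA or RA names.

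Genes of red blood cells and their precursors were among those lower in the knockouts than in the wild-type CGI females. Alas2, the erythroid enzyme that starts haem synthesis, was at 190 CPM in WF10, 95.3 in WF11 and 70.0 in WF12, and at 32.2 in KF19, 23.1 in KF20 and 15.7 in KF21 (log2 difference -2.20, SE 0.40, adjusted p = 0.0385, limma). Hba-a2, an alpha-globin gene, was at 253, 138 and 88.4 CPM in the wild types and at 41.3, 27.1 and 20.9 CPM in the knockouts (-2.31, adjusted p = 0.0268, limma), and it is uncertain because counting can split reads between it and the near-identical Hba-a1. In both genes WF10 was the highest library and the groups did not overlap.

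Of 9 erythroid genes tested, 7 had all knockouts below all wild types, against 1.61% of all genes. After median-ratio scaling 6 did, against 953 of 14229 genes. The median log2 difference of the 9 erythroid genes was -1.73. Their summed level was 1555 to 3761 CPM in wild types and 646 to 1429 CPM in knockouts, and no member was at 0 in any of the 6 libraries. In the wild-type CGI males it was 568 to 698 CPM, nearer to the CGI knockouts than to the wild-type CGI females. With LA or RA names it was 632 to 1511 CPM in wild-type females and 503 to 3075 CPM in knockout females. The cause of the high level in the wild-type CGI females was not tested. None of the 9 was called without WF10, without KF19, after median-ratio, TMM or quantile scaling, or by edgeR. Without WF11, 4 were called, against 112 over all genes, and DESeq2 on all 6 libraries called 5, against 72 over all genes. In bulk tissue, fewer cells of a type and less RNA per cell cannot be told apart. Tfrc, the transferrin receptor, was at 446, 420 and 629 CPM in the wild types and at 197, 180 and 90.4 CPM in the knockouts (-1.73, adjusted p = 0.112, limma).

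Rny1, a small non-coding Y RNA, was at 133 CPM in WF10, 3.26 in WF11 and 78.4 in WF12, and had 1 read in each of the 3 knockouts. The wild-type CGI females thus differed widely among themselves, and the wild-type CGI males were at 0 to 0.551 CPM. The ratio of summed reads per depth, wild type over knockout, was 326 with an exact 95% interval of 111 to 1584 that covers counting error only. Rny1 was called in the 6 libraries (adjusted p = 0.0268, limma). It was not called without WF10 (adjusted p = 0.613, limma), after median-ratio scaling (0.655, limma) or by edgeR (0.308). Rn7sk, another small RNA without a poly(A) tail, was also highest in WF10, WF11 and WF12, and its part in the Rny1 difference was not tested.

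No transcript in 6 lists of genes related to PAM passed the test, and the peptides themselves were not measured. Of 34 listed precursors of amidated peptides, only 5 were measured as RNA. Among 11 genes of the atrial natriuretic peptides, their receptors and processing, 10 of the adrenomedullin, CGRP and apelin systems, 5 precursors of amidated peptides, 21 of peptide processing and the secretory granule, 16 partners and adaptors of PAM and 25 of copper handling, 0 were called by limma, by edgeR or by DESeq2. Limma called 0.148% of all genes tested, so 0 in lists of this size is near that share. The 6 lists held 0, 2, 1, 2, 0 and 2 members at an unadjusted p under 0.05 (limma), against 544 of 14229 genes tested. The median log2 differences of these 6 lists were 0.30, 0.40, 0.68, 0.33, 0.11 and 0.24, against 0.24 over all genes. Without WF10 they were 0.01, -0.05, 0.35, 0.08, -0.01 and -0.09, against 0.02 over all genes. Calcb, the precursor gene of a CGRP peptide, ran from 1.78 to 5.17 CPM in wild types and from 4.34 to 12.4 CPM in knockouts (1.0, adjusted p = 0.874, limma). Nmb, which encodes the amidated peptide neuromedin B, ran from 0.445 to 1.90 CPM and from 2.03 to 2.39 CPM (0.62, adjusted p = 0.874). Rab27a, a small GTPase of secretory granules, ran from 9.35 to 24.6 CPM and from 30.9 to 38.7 CPM (1.0, adjusted p = 0.874).

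No other list held a gene called by limma or by edgeR. DESeq2 called 1 of 22 endoplasmic reticulum, 1 of 16 cardiac stress, 1 of 27 sarcomere and 1 of 16 endothelial genes. It also called 2 of 25 ion channels and connexins, against 72 of 14213 genes in all. At an unadjusted p under 0.05 (limma) were 5 of 22 endoplasmic reticulum genes and 3 of 18 epicardial markers. So were 9 of 16 B and T cell markers and 0 of the 12 atrial myocyte markers named next, against 544 of 14229 genes tested. In the list of endoplasmic reticulum folding, 6 of 22 genes lay higher in all knockouts, against 7.23% of all genes tested. After median-ratio scaling 7 lay higher and 2 lower, against 924 and 953 of all 14229 genes. The median log2 difference of this list was 0.27, and 0.07 without WF10. Herpud1, a gene of protein quality control in that compartment, ran from 57.0 to 106 CPM in wild types and from 145 to 217 CPM in knockouts (1.16, adjusted p = 0.755, limma). By DESeq2 the adjusted p of Herpud1 was 0.000387. Of 18 epicardial and mesothelial markers, 6 lay higher in all knockouts (3 after median-ratio scaling), against the same 7.23% of all genes. The median of these markers was 0.58, and 0.25 without WF10. Upk3b, the uroplakin gene of mesothelium, ran from 56.5 to 228 CPM and from 289 to 345 CPM (1.22, adjusted p = 0.874, limma). B and T cell markers had a median of -0.65, and Ms4a1, the B cell gene of CD20, ran from 2.81 to 13.8 CPM in wild types and from 0.678 to 3.48 CPM in knockouts (-1.70, adjusted p = 0.755). Atrial myocyte markers had a median of 0.66, which was -0.03 without WF10. Among immediate early genes, Nr4a3 ran from 0.445 to 2.99 CPM and from 5.01 to 11.3 CPM (1.96, adjusted p = 0.161), and among 27 sarcomere genes Tcap ran from 299 to 901 CPM and from 1191 to 1975 CPM (1.42, adjusted p = 0.722). The potassium channel gene Kcnj2 ran from 108 to 135 CPM and from 48.9 to 76.7 CPM (-0.89, adjusted p = 0.874, limma, and 0.00742 by DESeq2).

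**Figure D4:**
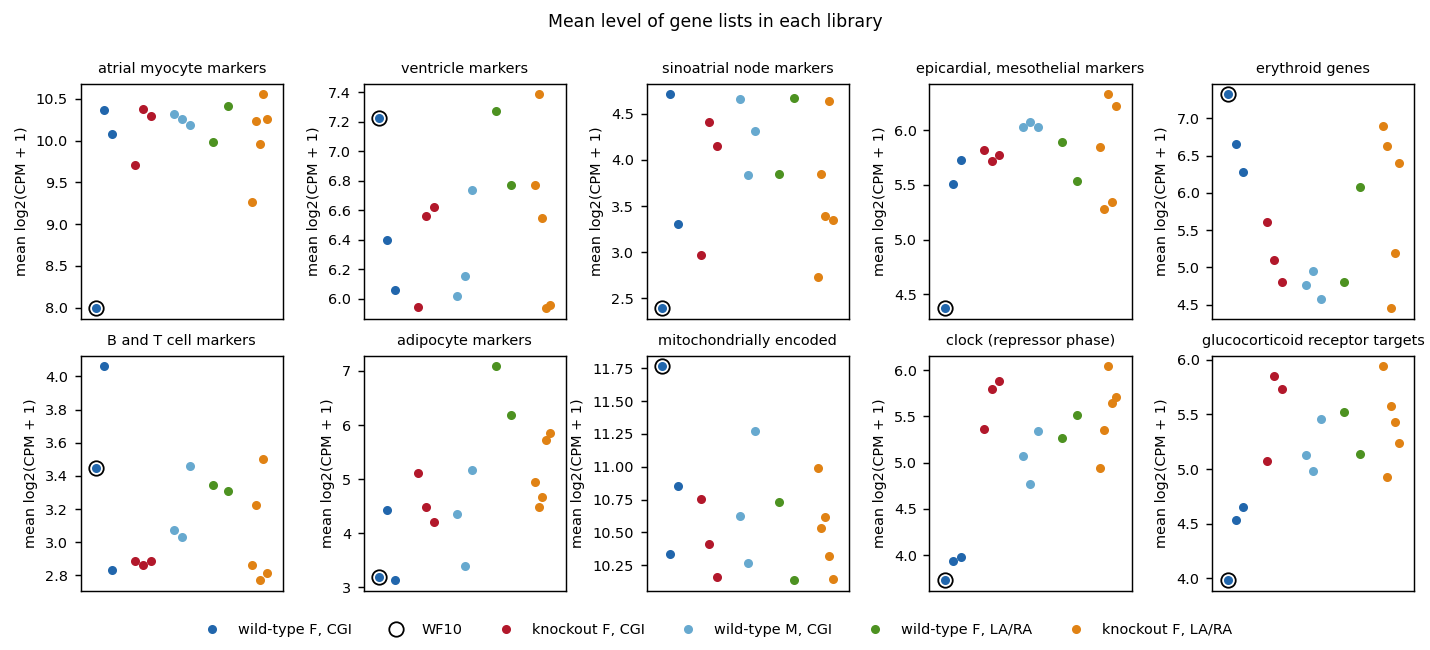
Mean log2 of CPM plus 1 over the members of 10 gene lists in each library, by genotype, sex and name set. WF10 (ringed) is lowest for atrial myocyte, sinoatrial node and epicardial markers and highest for mitochondrial genes. In the clock list the 3 wild-type CGI females, including WF10, lie below every other library shown.

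The levels in other libraries place both groups. For Dbp the 3 wild-type males with CGI names were at 58.8, 51.2 and 82.1 CPM, the 2 wild-type females with LA or RA names at 75.4 and 94.1 CPM, and the 5 knockout females of that set at 41.3 to 121 CPM. All of these 10 libraries lay above the 3 wild-type CGI females (3.12 to 11.5 CPM). For Arntl the same wild-type males were at 23.9, 21.6 and 7.01 CPM, the wild-type females with LA or RA names at 8.29 and 11.6 CPM, and the knockout females of that set at 3.62 to 11.8 CPM, all below the wild-type CGI females (30.7 to 63.3 CPM). For Fkbp5 the wild-type males were at 32.6, 26.1 and 92.6 CPM and the wild-type females with LA or RA names at 25.2 and 19.8 CPM. Except for the highest male, these lay between the wild-type CGI females at 9.23 to 10.2 CPM and the knockout CGI females at 54.2 to 92.3 CPM. The knockout females with LA or RA names, KF14 to KF18, were at 55.4, 17.5, 29.4, 17.1 and 21.8 CPM. Over the whole clock list the summed level was 261 to 336 CPM in the wild-type CGI females, 1073 to 1406 in the knockout CGI females, 769 to 1091 in the CGI males, 983 to 1091 in the other wild-type females and 693 to 1383 in the other knockout females. These comparisons share the wild-type CGI females with the one above, so they are not separate evidence on those libraries.

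In the females with LA or RA names, none of them a CGI female, the contrast of 5 knockouts against 2 wild types called Pam alone (log2 difference -3.39, adjusted p = 0.0036, limma). An unadjusted p under 0.05 was found for 202 of 14451 genes. The log2 differences used only the libraries with LA or RA names. The spread behind the p-values came from all 13 female libraries, CGI females included, so these p-values are not separate from that set. Both wild types with LA or RA names have names that begin with RA, against 2 of the 5 knockouts, the other 3 beginning with LA. Bmp10 was at 4107 and 6410 CPM in these wild types, at 5009 and 444 CPM in the RA knockouts KF15 and KF18, and at 1.26, 76.5 and 4811 CPM in the LA knockouts KF14, KF16 and KF17. The part of this imbalance in the contrast was not tested. The 15 genes called higher in the CGI females had a median log2 difference of 2.33 there and 0.17 in the other females. In the other females 9 of 15 were above 0, against 44.7% of all genes. The 15 were picked by their CGI values, which widens the first median, so a smaller second median was likely beforehand. The difference between the 2 knockout effects was tested over 13 female libraries, and 3 of 14451 genes were called (0.0208%), with 590 at an unadjusted p under 0.05. For Dbp the knockout effects were 3.76 and 0.10, a difference of 3.66 (SE 0.56, adjusted p = 0.0164, limma). For Nr1d2 they were 2.28 and -0.33, a difference of 2.62 (SE 0.35, adjusted p = 0.00482). For Cyp2e1 they were 2.95 and -2.04, a difference of 4.99 (SE 0.64, adjusted p = 0.00482). Adipocyte markers had the sign of Cyp2e1 in both sets, with a median log2 difference of 1.06 in the CGI females and -1.67 in the others, where their summed level was 4417 to 5793 CPM in wild types and 2149 to 2965 CPM in knockouts. Their part in this difference was not tested. Pam had a difference of 0.15 (SE 0.60, adjusted p = 0.960, limma). The erythroid genes Hba-a2 and Alas2, which were lower in CGI knockouts, had log2 differences of 0.84 and 0.93 in the other females. For these genes the differences between the 2 effects did not pass (adjusted p = 0.898 each, limma). The count of 3 was 0 without WF8 or without WF9, which leaves a single wild-type female in that set whose spread is assumed to be like that of the others, and 13 without WF11.

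**Figure D5:**
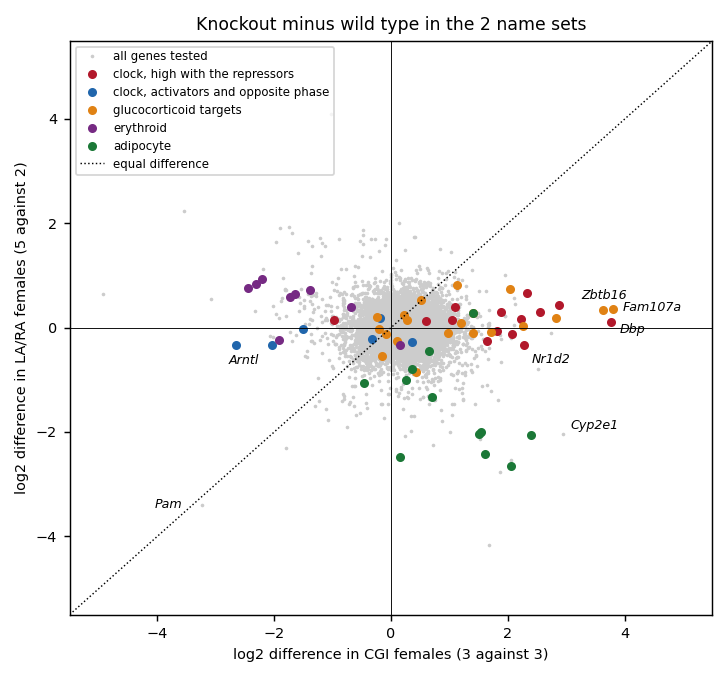
Log2 difference, knockout minus wild type, in the CGI females (3 against 3, horizontal axis) and in the females with LA or RA names (5 against 2, vertical axis), 1 point per gene, with 5 gene lists in colour. Pam lies near the line of equal difference, while the clock and glucocorticoid genes stretch along the horizontal axis close to 0 on the vertical one.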

How the data were processed

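RNA of mouse atria was read as stranded TruSeq mRNA libraries with paired reads of 75 bases, planned at 20 M reads each, per the labels' protocols. HISAT2, HTSeq, DESeq2 and mm10 are named in the submitters' processing notes, with no versions. The deposited values are CPM, although the file header says FPKM: within a library all values (100%, to within 0.001 reads) were whole multiples of a single amount, whatever the gene, so the authors had not divided by length, and dividing by that amount gave back whole reads and the depth. The unit foreseen was FPKM, and the same test was used on CPM. A floor of 3 reads is 0.407 to 1.34 CPM in the 6 libraries. Of 14467 lines, 10 that list 5 symbols more than once were left out. Genes with at least 1 CPM in at least 3 of the 6 libraries were tested on log2(CPM + 1), which understates changes of low genes, with limma 3.58.1 (lmFit, eBayes with trend) in R 4.3.3, and called at a Benjamini-Hochberg adjusted p under 0.05. The second fit took 13 female libraries in 4 groups. Alternatives used edgeR 4.0.16 and DESeq2 1.42.0 on the recovered reads, other scalings, filters and pseudocounts, and left out single libraries. The fit was also run on simulated counts with known changes. These had the depths of the 6 libraries but not their differences in make-up, such as that of WF10. Ratios are of mean CPM. The groups and gene lists were chosen with earlier results of these data known. Named were Pam, the called genes, up to 12 genes a direction of largest difference with groups that do not overlap, up to 4 members of each list with the smallest p, and further list members, Tfrc, Rn7sk, Bmp10, Myl2, Myl7, Xist and Adipoq, chosen after their values were seen. Not all genes within the rule are described, and 1 called gene is not reported here.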

Additional observations from a re-analysis of the deposited data

Results flagged for a closer look

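The knockout effect differed between the CGI females and the females with LA or RA names, by a test of the difference itself, for 3 genes. The log2 difference between the effects was 3.66 for Dbp, 2.62 for Nr1d2 and 4.99 for Cyp2e1. The median log2 difference of the adipocyte markers was 1.06 in the CGI females and -1.67 in the others, and its part in the Cyp2e1 result was not tested. Among the 5 knockout females with LA or RA names, a single library stood apart from the rest for 4 of the 21 called genes, where chance alone gives about 1 in 20. These were the lowest value of Dbp, 41.3 CPM, and the highest values of Fam107a, 35.8 CPM, of 1110034G24Rik, 87.3 CPM, and of Rny1, 12.8 CPM. The groups of 3 are too small for this check.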

How the results depend on the processing

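Across 24 alternatives no gene given with a log2 difference changed its sign. The 21 called genes became 13 when scaled by median ratios and 13 when quantile-normalized, 12 by edgeR and 72 by DESeq2, where 568 genes had no adjusted p. With WF10 left out as well, an alternative chosen after seeing the data, edgeR called 11, DESeq2 82 and median-ratio scaling with limma 10. Leaving out single libraries gave 0 (without KF19) to 112 (without WF11) called genes, and 0 to 13 for the difference between the name sets. The log2 difference of Pam was -3.54 with an adjusted p of 0.164 after quantile normalization, and ran from -3.92 to -2.87 without single libraries, with an adjusted p of 0.568 (limma) without KF19. The cause was not tested. Of 719 list medians over 36 lists, 689 moved by no more than 1 SD between libraries of a group, and 13 of the 36 lists moved further at least once. That SD includes WF10, and the edgeR and DESeq2 fits were not part of this check. A fit with array weights did not converge and gives no value. No paired analysis was possible because the groups share no replicate numbers. Depth limits genes near 1.34 CPM in WF10.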
